A study of Mus musculus with 28 samples.

Results

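Endothelial cells sorted from brain metastases (BrM) of lung origin were compared with endothelial cells sorted from brain metastases of breast origin. The members are the CD31 libraries whose count columns name a lung or a breast origin, 5 of each, 10 of the 28 libraries of the series. All mice carried PDGFRb-CreERT2 and Rosa-tdTomato, an inducible Cre recombinase driven in mural cells and a red reporter. According to the labels they received 2 mg of tamoxifen a day on 5 days. Lung BrM grew from the line Sv2T3-BrM1 and breast BrM from the line PyMT-BrM3, each injected into the heart, so each origin stands for 1 cell line. The tissue was resected brain metastasis or, in the third group, non-tumor brain, and neither age nor sex is given in the labels. Cells were gated as CD31-positive and free of CD45, CD11B and EPCAM. The non-tumor group, labelled healthy, gave 5 CD31 libraries, which enter the fit and stand beside each result. Of the lung libraries 2 name 2 mouse numbers each.

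Brain endothelial cells form the blood-brain barrier through tight junctions, transporters and low transcytosis. They also respond to interferons, the cytokines of antiviral and antitumor immunity. Type I interferons act through the receptor IFNAR and a complex of transcription factors, STAT2 and IRF9 among them, which binds the interferon-stimulated response element (ISRE) of their target genes. Interferon gamma acts through a receptor of its own, induces the chemokines Cxcl9, Cxcl10 and Cxcl11, and raises the genes that load peptides on MHC class I. IRF7 and IRF9 are themselves interferon-induced, so a response can sustain itself.

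Depth was alike in the groups. Library totals ranged between 12870130 and 18131290 counts in lung BrM and between 13634440 and 20838345 counts in breast BrM. Lung library 56195-56520 had the fewest genes detected, 12592, while the other lung libraries had 15075 to 19451 and the breast libraries 17949 to 22136. Levels are given as CPM, counts scaled to the library total. A count of 3 was worth 0.144 to 0.233 CPM depending on the library, and this floor covers counting error only. The column names carry dates, and 0 of 5 dates of the BrM libraries hold both origins, so origin and date cannot be told apart by the design.

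The gate was read in the genes behind it. Pecam1, which encodes CD31, stood at 837, 597, 1080, 1250 and 893 CPM in lung BrM and at 863, 765, 832, 637 and 984 CPM in breast BrM, against 1300 to 1380 CPM in non-tumor brain. The libraries of the origins overlap, and Pecam1 was not called between them (adjusted p = 0.68). Cdh5, the endothelial cadherin, averaged 519 ± 151 CPM in lung BrM and 573 ± 268 CPM in breast BrM (SD, n = 5 each; adjusted p = 0.87). Of 20 genes of endothelial identity 1 was called, Sox17. The leukocyte gene Ptprc (CD45) peaked at 3.01 CPM in lung BrM and at 3.24 CPM in breast BrM. The mural gene Pdgfrb reached 14.2 CPM in lung library 51697 and was at most 0.84 CPM in breast BrM. Pecam1 and Cdh5 thus mark all 10 libraries as endothelial, as labelled.

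Epithelial RNA was present despite the EPCAM gate and differed in kind between the origins. Epcam, the gated protein's gene, was at 0.857, 1.82, 38.1, 0 and 0 CPM in lung BrM and at 76.7, 13.6, 33.2, 393 and 37.7 CPM in breast BrM. Csn3, which encodes the milk protein kappa-casein, was at 2.14, 0.95, 1.57, 1.04 and 2.78 CPM in lung BrM, against 2200, 235, 795, 9000 and 1050 CPM in breast BrM. The groups do not overlap, and breast library 53072 was the highest. The log2 difference, lung minus breast throughout, was -10.6 ± 1.7 (SE, adjusted p = 0.0026; -9.27 without breast library 53072). Cdh17, an intestinal cadherin, was at 157, 61.7, 20.3, 16.9 and 71.9 CPM in lung BrM and at 0.354 CPM or less in breast BrM (log2 difference 9.24 ± 0.88, adjusted p = 6.1e-05; 10.42 without breast library 53072). Hnf4a, a liver and gut transcription factor, was at 40.1, 35.1, 20.9, 5.31 and 21.6 CPM in lung BrM and had no counts in breast BrM, at least 716-fold higher in lung BrM against 3 counts over the breast group.

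Over the whole lists the split was the same. Mammary epithelial genes summed to 538 to 973 CPM in lung BrM and 1390 to 14400 CPM in breast BrM, against 275 to 392 CPM in the non-tumor libraries. Of 12 mammary genes tested, 8 were lower and 2 higher in lung BrM, where 1.55% of all genes tested were lower and 0.578% higher. Gut and liver epithelial genes summed to 93.6 to 799 CPM in lung BrM and 17.7 to 28.4 CPM in breast BrM, against 52 to 192 CPM in the non-tumor libraries, and 7 of 9 were higher in lung BrM. The tdTomato-positive cells sorted through the same exclusions, called the PDGFRb sort below, also held such RNA. There Csn3 averaged 1.74 CPM in lung BrM and 7130 CPM in breast BrM, and Cdh17 averaged 428 CPM in lung BrM and 0.183 CPM in breast BrM. Levels in that sort are given beside the results as a gauge of RNA that is not particular to the CD31 gate. The part of epithelial RNA in the differences between origins was not tested beyond the fits with epithelial RNA as a covariate.

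**Figure D1:**
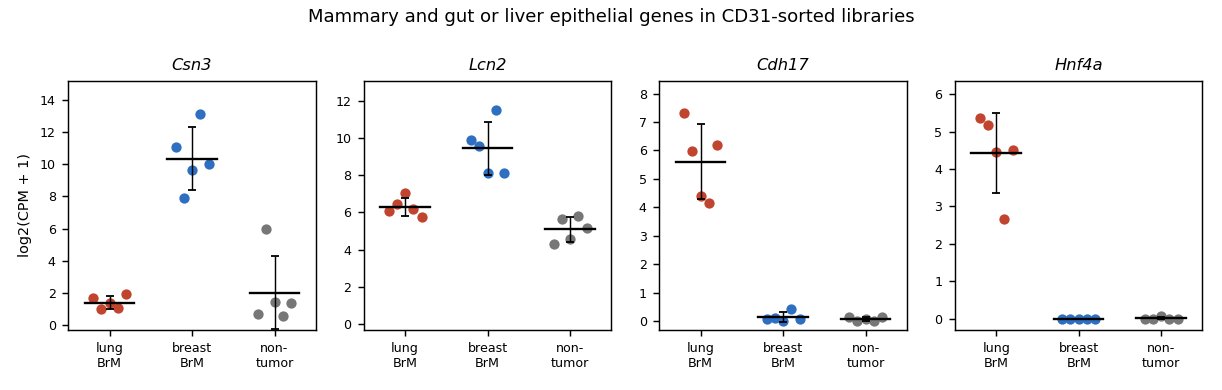
Levels of Csn3 and Lcn2, mammary genes, and Cdh17 and Hnf4a, gut and liver genes, as log2(CPM + 1) in each CD31 library, with the mean and SD of 5 libraries a group. The mammary genes are high in breast BrM and the gut and liver genes are found in lung BrM; Hnf4a had no counts in breast BrM.

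The comparison asked which endothelial programs depend on the tumor of origin. Interferon-induced genes and MHC class I genes were lower in lung BrM than in breast BrM, and they make up most of the endothelial-enriched genes that were called. Barrier, sprouting, matrix and cell division lists held few calls or none, and few are also due at the share of all genes, 2.13%. Their members could still lean to 1 side. Barrier transport genes were positive in 25 of 26 (median 0.5), and G2 and mitosis genes negative in 26 of 28 (median -0.5). Of 14876 genes tested, 86 were higher in lung BrM (0.578%) and 231 lower (1.55%), 2.13% in either direction, by edgeR's quasi-likelihood test at a Benjamini-Hochberg adjusted p under 0.05. The 5 lung and 5 breast libraries did not overlap in 62 of the 86 and 205 of the 231. These same libraries gave the calls, so the lack of overlap is no separate support, and its share over all genes is not given. The median log2 difference of all genes tested was -0.03. Of the called genes, 61 of the 86 and 128 of the 231 stood higher in the PDGFRb than in the CD31 sort of the origin in which they were higher. The share of all genes tested that stood higher there is not given, so these counts say nothing particular of the called genes. The counts rest in part on single libraries: 140 genes were lower without breast library 53072, while 147 were higher without lung library 51697 and 149 without lung library 56195-56520.

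A gene was taken as endothelial-enriched where the CD31 sort of non-tumor brain exceeded the PDGFRb sort at least 8-fold. Of 868 such genes, 8 were higher in lung BrM (0.922%) and 46 lower (5.3%), with a median log2 difference of 0.01. Without breast library 53142 the lower genes numbered 29. In breast BrM 6 of the 46 stood higher in the PDGFRb than in the CD31 sort, such as Ifit3 at 317 against 252 CPM. Enrichment in non-tumor brain thus does not place all of this RNA in the CD31 sort of BrM. Of the 46, 32 belong to the type I interferon, interferon gamma or MHC class I lists. Among the other 14, chosen here after their values were seen, Ifi206, Ifi213, Samd9l, Sp110, Slfn2, Slfn5, Gvin1, Apol9a, Apol9b and Ly6e are known as interferon-induced, and H2-Q5 is an MHC class I gene.

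**Figure D2:**
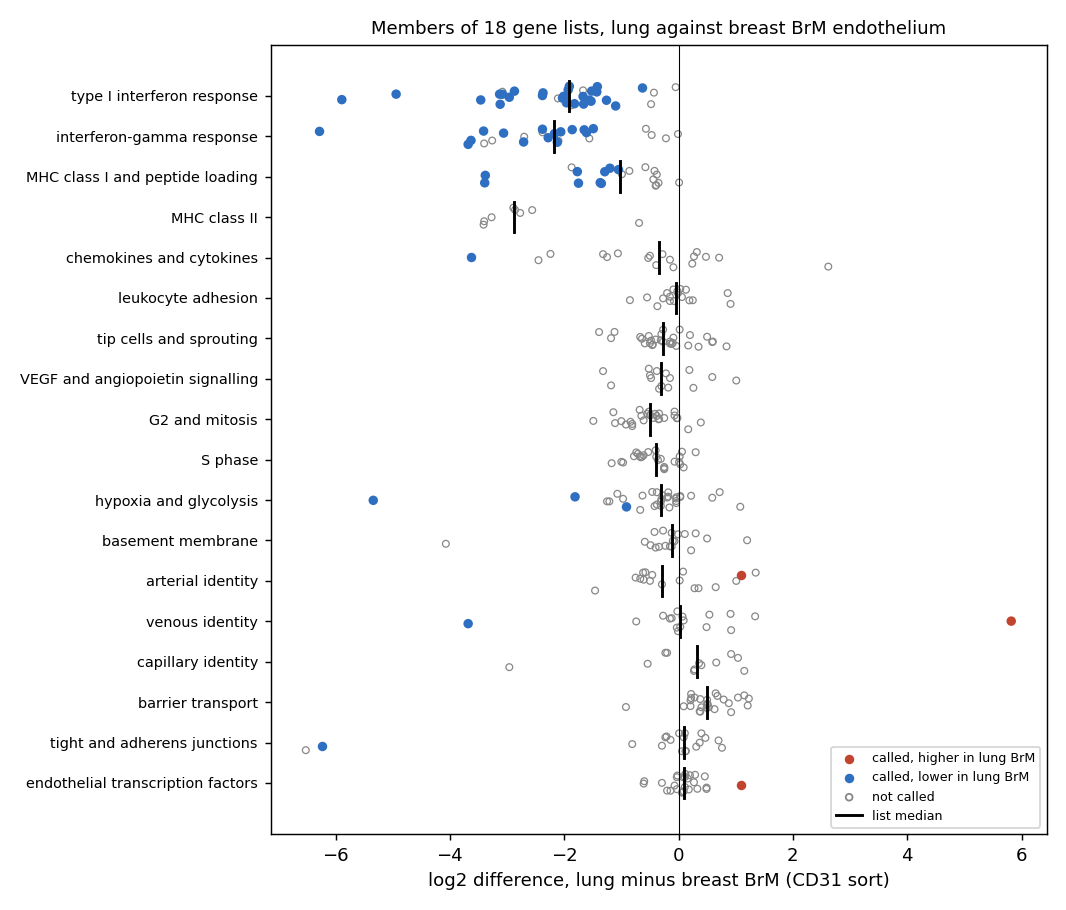
Each point is a tested member of 1 of 18 gene lists, placed by its log2 difference, lung minus breast BrM, in the CD31 sort. Filled points passed the test (red higher, blue lower in lung BrM), open points did not, and the bar is the list median. The type I interferon, interferon gamma and MHC class I lists lie left of 0, with medians of -1.92, -2.17 and -1.02, as does MHC class II with no call; the other 14 medians lie between -0.5 and 0.5.

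Of the type I interferon list, 27 of 34 members were lower in lung BrM (79.4%), none was higher, and 34 of 34 had a negative log2 difference. The median was -1.92, beside -0.03 over all genes tested. The upstream factors are described first. Irf7, the factor that amplifies type I interferon production, was at 73.1, 102, 54.4, 139 and 127 CPM in lung BrM, against 359, 235, 271, 518 and 610 CPM in breast BrM (log2 difference -2.01 ± 0.29, adjusted p = 0.0013). Its non-tumor level, 232 to 342 CPM, overlaps the breast range and not the lung range. Stat2 and Irf9, which encode factors that act at the ISRE, did not pass the test (log2 difference -1.67 and -0.48, adjusted p = 0.067 and 0.19), though Stat2 did without lung library 56195-56520 (-1.37, adjusted p = 0.0012).

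The antiviral effectors follow. Ifit1, which binds foreign RNA, was at 16.4, 13.7, 8.9, 18.6 and 3.04 CPM in lung BrM and at 70.5, 73.5, 39.6, 151 and 108 CPM in breast BrM, against 144 to 282 CPM in non-tumor brain. Every lung library lies below every breast and every non-tumor library, while breast and non-tumor libraries overlap. Against non-tumor brain, in the same fit, Ifit1 was lower in both origins. The log2 difference was -4.18 for lung BrM (adjusted p = 2.7e-06) and -1.31 for breast BrM (adjusted p = 0.017). Ifit1 was 7.31-fold lower in lung BrM (log2 difference -2.87 ± 0.42, adjusted p = 0.0014). Ifit3, its binding partner, was at 50.3, 19.6, 20.5, 57.1 and 11.9 CPM in lung BrM and at 165, 206, 144, 356 and 370 CPM in breast BrM (log2 difference -2.96 ± 0.41, adjusted p = 0.0011); it has a close copy, Ifit3b, and reads may be shared between them. Rsad2, the antiviral enzyme viperin, was at 31.6, 17.9, 14.1, 44.6 and 23.7 CPM in lung BrM and at 106, 350, 159, 246 and 288 CPM in breast BrM (log2 difference -3.12 ± 0.35, adjusted p = 0.00018). Breast and non-tumor libraries overlap in Ifit3 and Rsad2, and the lung libraries lie below both groups.

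The upstream sequences of 4 of these genes are shown because each holds the letters of the ISRE close to its start. They are the 160 bases before the RefSeq gene start on assembly GRCm38.p6, 5′ to 3′ on the gene's strand, and capitals mark ISRE letters, here GAAA, any 2 bases and GAAA, on either strand. The stretches are chr19:34640729-34640888 (plus strand) for Ifit1, chr19:34583369-34583528 (plus) for Ifit3, chr12:26456453-26456612 (minus) for Rsad2 and chr4:156200819-156200978 (minus) for Isg15.
Ifit1: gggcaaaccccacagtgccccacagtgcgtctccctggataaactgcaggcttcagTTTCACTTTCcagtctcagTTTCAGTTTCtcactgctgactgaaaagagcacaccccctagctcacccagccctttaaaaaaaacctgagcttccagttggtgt
Ifit3: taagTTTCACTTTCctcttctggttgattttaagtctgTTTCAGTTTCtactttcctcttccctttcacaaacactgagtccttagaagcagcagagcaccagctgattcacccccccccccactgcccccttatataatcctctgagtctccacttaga
Rsad2: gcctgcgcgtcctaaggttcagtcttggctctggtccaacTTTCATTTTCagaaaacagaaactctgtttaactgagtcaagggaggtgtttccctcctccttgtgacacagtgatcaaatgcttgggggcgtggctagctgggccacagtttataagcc
Isg15: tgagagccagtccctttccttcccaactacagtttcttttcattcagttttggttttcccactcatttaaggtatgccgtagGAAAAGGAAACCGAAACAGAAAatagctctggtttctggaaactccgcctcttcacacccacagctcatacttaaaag

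The 3 matches of Isg15 overlap in a single run. Over the 250 bases before the start, the same letters on either strand were found for 10 of the 20 type I interferon members that were lower in lung BrM and have a RefSeq promoter in the table used. They were found for 8 of 10 such interferon gamma members and 3 of 9 MHC class I members, and for 1 of 4, 3 of 6 and 0 of 9 members of these lists that were not called. Among all genes tested with a promoter the share was 3.23%, among the endothelial-enriched genes 8.5%, among genes lower in lung BrM 20.3% and among genes higher in lung BrM 3.28%. A second set of letters, GAS (TTC, any 3 bases and GAA), was searched as well. It was found for 4 of 10 interferon gamma members lower in lung BrM and 5 of 6 not called, and for 3 of 20 and 0 of 4 type I members. Its share was 7.13% of all genes tested, 10.1% of genes lower and 4.92% of genes higher in lung BrM. A gene with several listed promoters counts once if any holds a match. The match is a description of letters and not a measured binding site, and the lists were written from known interferon targets.

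Other members of the type I list did as follows. Isg15, a ubiquitin-like modifier, averaged 27.1 ± 7.95 CPM in lung BrM and 95.8 ± 27.7 CPM in breast BrM (SD, n = 5 each; log2 difference -1.82 ± 0.26, adjusted p = 0.0014). Oas2, an activator of RNA decay with close paralogs, averaged 2.04 ± 2.18 CPM in lung BrM and 63.7 ± 34.7 CPM in breast BrM (log2 difference -4.94 ± 0.85, adjusted p = 0.0047). Zbp1, a sensor of Z-form nucleic acid, averaged 10.1 ± 2.86 CPM in lung BrM and 85.4 ± 49.7 CPM in breast BrM, against 11.6 ± 3.61 CPM in the non-tumor libraries (log2 difference -3.08 ± 0.39, adjusted p = 0.00052). Lung and non-tumor libraries overlap in Zbp1, and breast libraries lie above both, an order unlike that of Ifit1. Usp18, the enzyme that removes ISG15 and restrains the receptor, was also lower in lung BrM (log2 difference -1.66 ± 0.22, adjusted p = 7e-04). The 7 members that did not pass include the RNA sensor gene Ddx58 (log2 difference -0.43, adjusted p = 0.31; -0.67, adjusted p = 0.023, without lung library 56195-56520) and Ifi27 (-0.05, adjusted p = 0.93). The sign of Ifi27 turned under some alternatives, those on FPKM among them.

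**Figure D3:**
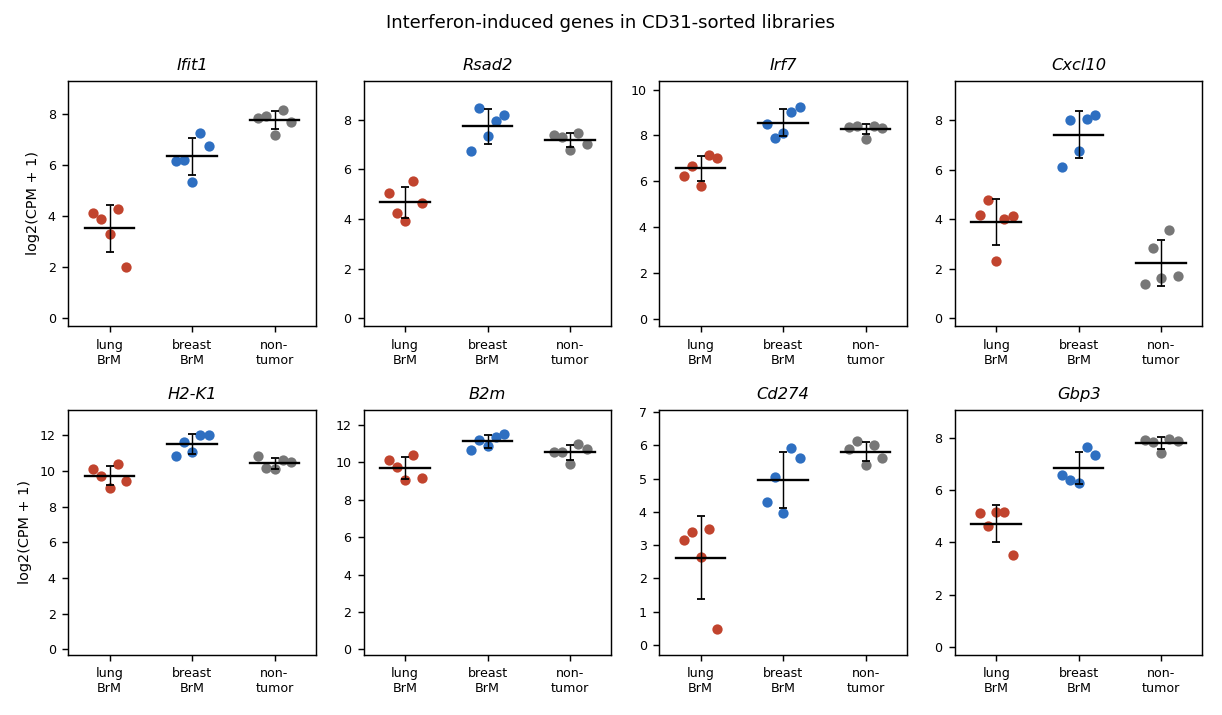
Levels of 8 interferon-induced genes as log2(CPM + 1) in each CD31 library, with the mean and SD of 5 libraries a group. Lung BrM libraries lie below breast BrM libraries in each panel. The non-tumor mean is the highest for Ifit1, Cd274 and Gbp3 and the lowest for Cxcl10.

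The interferon gamma list was lower in lung BrM in 15 of 25 members (60%), with 25 of 25 negative and a median of -2.17. Among its chemokines, which attract T cells, Cxcl10 was at 17, 26.7, 4.04, 15.3 and 16.3 CPM in lung BrM and at 67.6, 254, 107, 261 and 292 CPM in breast BrM, against 1.59 to 10.8 CPM in non-tumor brain. Cxcl10 was 12.4-fold lower in lung BrM than in breast BrM (log2 difference -3.63 ± 0.59, adjusted p = 0.0031). Against non-tumor brain it was higher in both origins (log2 difference 1.79 for lung BrM, adjusted p = 0.022, and 5.42 for breast BrM, adjusted p = 1.1e-05). Cxcl9 was at 4.23, 0, 0.411, 0.712 and 0.886 CPM in lung BrM and at 4.81, 86.8, 15.5, 187 and 200 CPM in breast BrM (log2 difference -6.28 ± 1, adjusted p = 0.0035; -7.52 without lung library 51435). In the PDGFRb sort Cxcl9 averaged 3.51 CPM in lung BrM and 53.3 CPM in breast BrM, and Cxcl10 averaged 17.6 CPM in lung BrM and 268 CPM in breast BrM.

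The interferon-induced GTPases of the list share close paralogs. Gbp3 was at 34.1, 23.5, 34.6, 34.7 and 10.6 CPM in lung BrM and at 95.3, 83.2, 76.2, 199 and 164 CPM in breast BrM, against 171 to 246 CPM in non-tumor brain (log2 difference, lung minus breast, -2.17 ± 0.32, adjusted p = 0.0016). Iigp1, an immunity-related GTPase, averaged 36.1 ± 20.7 CPM in lung BrM and 237 ± 151 CPM in breast BrM (log2 difference -2.71 ± 0.46, adjusted p = 0.0042). Cd274, the checkpoint ligand PD-L1, was at 7.9, 9.5, 5.2, 10.3 and 0.38 CPM in lung BrM and at 18.6, 32.2, 14.6, 59.4 and 48.7 CPM in breast BrM. The libraries of the origins do not overlap, and non-tumor brain, at 41.7 to 69.7 CPM, overlaps breast BrM only (log2 difference, lung minus breast, -2.38 ± 0.56, adjusted p = 0.033). Cd274 lost its call without breast library 53072 (log2 difference -2.09), breast library 53142 (-2.23), lung library 51435 (-2.43) or lung library 54957 (-2.3). Icam1, an adhesion receptor also driven by NF-kB, did not differ beyond its spread (log2 difference -0.01 ± 0.23, adjusted p = 0.99), nor did Irf1 pass (log2 difference -0.57 ± 0.25, adjusted p = 0.29).

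Of the MHC class I list, 9 of 20 members were lower in lung BrM (45%), beside 1.55% of all genes tested. The libraries of the origins did not overlap in these 9, which were called from the same libraries. H2-K1, a classical class I chain, was at 1080, 847, 526, 1350 and 679 CPM in lung BrM and at 1820, 3160, 2110, 4100 and 4080 CPM in breast BrM, against 1110 to 1790 CPM in non-tumor brain (log2 difference, lung minus breast, -1.77 ± 0.28, adjusted p = 0.0026). B2m, the shared light chain, was at 1130, 860, 535, 1340 and 576 CPM in lung BrM and at 1650, 2390, 1860, 2630 and 2950 CPM in breast BrM (log2 difference -1.37 ± 0.27, adjusted p = 0.011). For both genes lung and non-tumor libraries overlap, and breast libraries lie above the lung range. Against non-tumor brain, in the same fit, B2m was lower in lung BrM (log2 difference -0.8, adjusted p = 0.027). H2-K1 did not pass in lung BrM (-0.64, adjusted p = 0.077). In breast BrM H2-K1 was higher (1.12, adjusted p = 0.0051) and B2m did not pass (0.57, adjusted p = 0.12). Tap1, the peptide transporter, averaged 93.4 ± 16.7 CPM in lung BrM and 313 ± 147 CPM in breast BrM, against 123 ± 14.8 CPM in the non-tumor libraries (log2 difference, lung minus breast, -1.75 ± 0.26, adjusted p = 0.0016). Nlrc5, the transactivator of class I genes, is counted in the interferon gamma list. It was at 8.76, 6.17, 6.64, 11.2 and 0.127 CPM in lung BrM and at 31.4, 43.2, 26.5, 86.4 and 86.3 CPM in breast BrM (log2 difference -3.06 ± 0.63, adjusted p = 0.016). The non-classical genes H2-Q7 and H2-Q6 had log2 differences of -3.39 ± 0.51 and -3.38 ± 0.59, but they are near copies and their counts are uncertain.

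MHC class II genes, which antigen-presenting cells carry, were negative in 8 of 8 members (median -2.88), and 0 of 8 passed edgeR's test. H2-Ab1 was at 25.1, 13.5, 25.6, 10.5 and 5 CPM in lung BrM and at 8.21, 75, 16.7, 201 and 279 CPM in breast BrM, so the origins overlap (log2 difference -2.86 ± 0.74, adjusted p = 0.056). It passed without breast library 51950 (log2 difference -3.17, adjusted p = 0.014) or breast library 52865 (-3.15, adjusted p = 0.028), and its difference was -2.24 without breast library 53142 (adjusted p = 0.16). In the PDGFRb sort H2-Ab1 averaged 131 CPM in lung BrM and 192 CPM in breast BrM. Microglia and macrophage genes summed to 100 to 806 CPM in lung BrM and 71.2 to 222 CPM in breast BrM, and 0 of 16 were called by edgeR's test. Lymphocyte genes summed to 7.71 to 13.2 CPM in lung BrM and 10.7 to 20.8 CPM in breast BrM, and 0 of 4 were called.

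Set beside non-tumor brain, most type I interferon genes were lower in lung BrM, while the share that passed in breast BrM was near that of all genes. Both comparisons use the same non-tumor libraries. In lung BrM 27 of 34 members were lower and 0 higher than in non-tumor brain, where 34.8% of all genes tested passed in either direction, with a median log2 difference of -1.58. In breast BrM 3 were lower and 7 higher, where 30.1% of all genes passed, with a median of 0.22. Of the interferon gamma list, 16 of 25 were lower and 2 higher in lung BrM, while 4 were lower and 5 higher in breast BrM. Of the MHC class I list, 7 of 20 were lower and 1 higher in lung BrM, while 0 were lower and 8 higher in breast BrM. In bulk libraries fewer responding cells and less RNA per cell cannot be told apart.

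The level of the whole type I list, as mean log2(CPM + 1), was 4.95, 4.66, 4.32, 5.17 and 3.94 in the lung BrM libraries and 6.24, 6.46, 6.21, 7.15 and 7.18 in the breast BrM libraries, against 6.07 to 6.45 in non-tumor brain. The origins do not overlap. Breast library 53072, with the most mammary RNA, and breast library 53142, whose mammary sum was 2100 CPM, were the highest. Breast library 52599, with the least mammary RNA at 1390 CPM, was at 6.46. Breast libraries 51950 and 52865, with mammary sums of 4420 and 2150 CPM, were at 6.24 and 6.21. A link between the mammary sum and the list level was not tested. In the PDGFRb sort, on raw totals, the list was at 3.05 to 3.9 in 4 lung libraries and 4.31 to 6.97 in 4 breast libraries. In both origins its mean there was below that of the CD31 sort, 3.38 against 4.61 for lung BrM and 5.82 against 6.67 for breast BrM. Of the 27 members lower in lung BrM, 20 were higher in the CD31 than in the PDGFRb sort of breast BrM. The share of all genes tested is not given for this count.

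The column dates were read next, with list levels on raw totals. Non-tumor CD31 libraries of 4 dates kept the type I list between 6.03 and 6.41. On 25 May 2022, the single date with lung and non-tumor CD31 libraries, the list was at 4.33 and 3.95 in lung BrM, against 6.41 and 6.32 in non-tumor brain, and 33 of 34 genes were lower in the lung mean. On 4 April 2022 it was at 6.32 and 7.21 in breast BrM, against 6.21 in the non-tumor library, and on 11 April 2022 at 6.38, 6.22 and 7.19, against 6.03. On these dates 20 and 24 of the 34 genes stood above the non-tumor library in the breast mean. Ifit1 differed from same-date non-tumor brain by -5.51 on the log2 scale in lung BrM, and by -1.14 and -1.08 in breast BrM on its 2 dates. These same-date differences rest on 1 or 2 non-tumor libraries and were given no test.

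**Figure D4:**
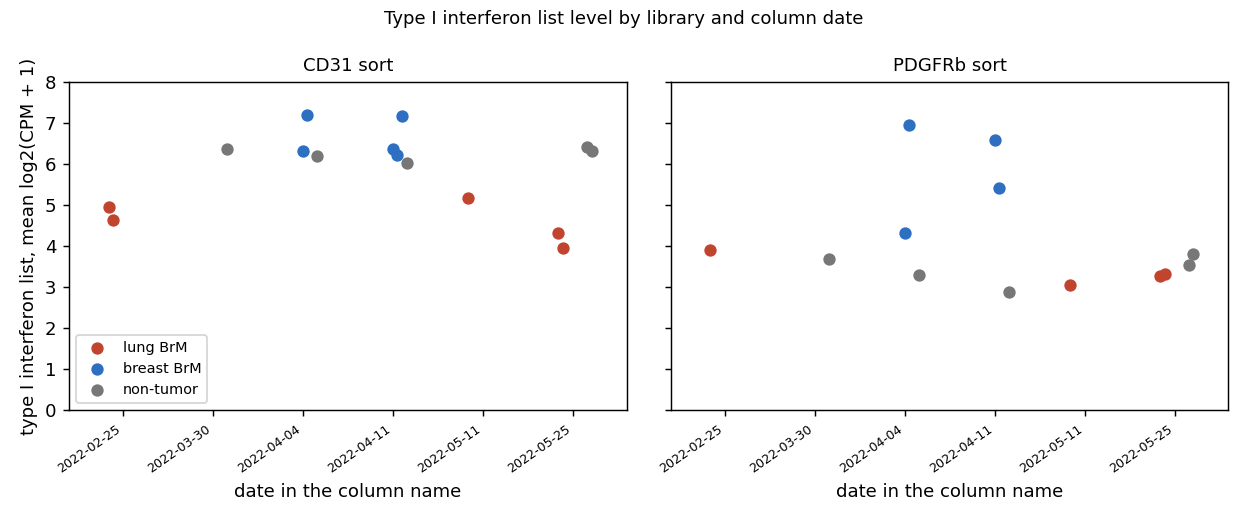
Mean log2(CPM + 1), on raw totals, of the 34 type I interferon genes in each library, by the date in its column name, for the CD31 sort (left) and the PDGFRb sort (right). In the CD31 sort lung BrM libraries of 3 dates lie below all others, and non-tumor libraries stay level over their dates. In the PDGFRb sort breast BrM lies above lung BrM, and lung BrM overlaps non-tumor brain.

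With column date as a covariate, the type I median was -2.76 and the interferon gamma median -2.85, and all 317 called genes kept their sign, but 0 genes were called. That fit has 7 residual degrees of freedom where the fit without dates has 12, and 955 genes, among them 27 of the type I list, had an unadjusted p under 0.05. The type I count was 15 in a fit of the 10 BrM libraries alone, with 122 genes called in all. The interferon gamma count was 8 without breast library 53072, 8 without breast library 53142, 6 with epithelial RNA as a covariate and 6 in the fit of the 10 libraries. The median differences stayed near those above: with the epithelial covariate -2.01 for interferon gamma and -1.79 for type I, of which 18 members were called, and in the fit of the 10 libraries -2.2 and -1.9. The type I count was 18 without breast library 53072, 18 without breast library 53142 and 23 to 31 over the fits that left out another BrM library.

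The endothelial-enriched genes higher in lung BrM are 8: Sox17, Grrp1, Wfdc1, Slc35f2, Nxpe4, Mindy1, AI467606 and Hgfac. All but Sox17 and AI467606 were chosen for naming after their values were seen. Sox17, a transcription factor of arterial identity and vessel integrity, was at 69.7, 53.2, 88.5, 46 and 117 CPM in lung BrM and at 26.4, 46.9, 34.9, 30.7 and 37.4 CPM in breast BrM, against 40.2 to 69.7 CPM in non-tumor brain. The origins overlap in 1 pair of libraries (log2 difference 1.09 ± 0.25, adjusted p = 0.029). Grrp1, of which little is known, was at 103, 72, 157, 151 and 209 CPM in lung BrM and at 66.3, 48, 51.7, 40 and 73.8 CPM in breast BrM (log2 difference 1.3 ± 0.3, adjusted p = 0.028). Both stood at no more than 0.274 CPM in the mean of the PDGFRb sort of either origin.

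Wfdc1, a secreted protease inhibitor, averaged 224 ± 58.9 CPM in lung BrM and 85.9 ± 53.5 CPM in breast BrM, against 838 ± 153 CPM in the non-tumor libraries (SD, n = 5 each; log2 difference, lung minus breast, 1.39 ± 0.31, adjusted p = 0.027). Slc35f2, a membrane carrier, averaged 151 ± 53.7 CPM in lung BrM and 75.3 ± 18 CPM in breast BrM, against 333 ± 23 CPM in the non-tumor libraries (log2 difference, lung minus breast, 1 ± 0.22, adjusted p = 0.023). Both were lower than non-tumor brain in each origin, less so in lung BrM. Hgfac, an activator of hepatocyte growth factor, was 9.19 times as high in the PDGFRb as in the CD31 sort of lung BrM. By the same ratio Mindy1 was at 1.38 and AI467606 at 0.759, and the rest of the 8 were at 0.0485 or less. AI467606 alone of the 8 had no overlap between the origins (log2 difference 0.81 ± 0.17, adjusted p = 0.019; 0.78 and no call without breast library 53142).

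These calls are close to the threshold. Sox17 lost its call without breast library 51950, 52865, 53072 or 53142 or lung library 54957, with log2 differences of 1.01, 1.08, 1.06, 1.1 and 1.02. Grrp1 lost it without breast library 52599, 52865 or 53072 (log2 difference 1.29, 1.27 and 1.22). Wfdc1 lost it without breast library 51950, 52865, 53072 or 53142 (log2 difference 1.36, 1.26, 1.33 and 1.23), and Slc35f2 without breast library 53072 or 53142 (0.97 and 0.93). Nxpe4 lost it without breast library 52599 (0.77), 52865 (0.87), 53072 (0.77) or 53142 (0.81) or lung library 54957 (0.8) or 56195-56520 (0.65). Mindy1 lost it without breast library 51950 (0.71), 52865 (0.63), 53072 (0.68) or 53142 (0.68). The number of such genes was 2 to 23 over the fits that left out 1 library, 2 without breast library 53072, 2 without 53142, 3 without 52865, 20 without 52599, 23 without lung library 51697 and 16 without lung library 56195-56520.

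**Figure D5:**
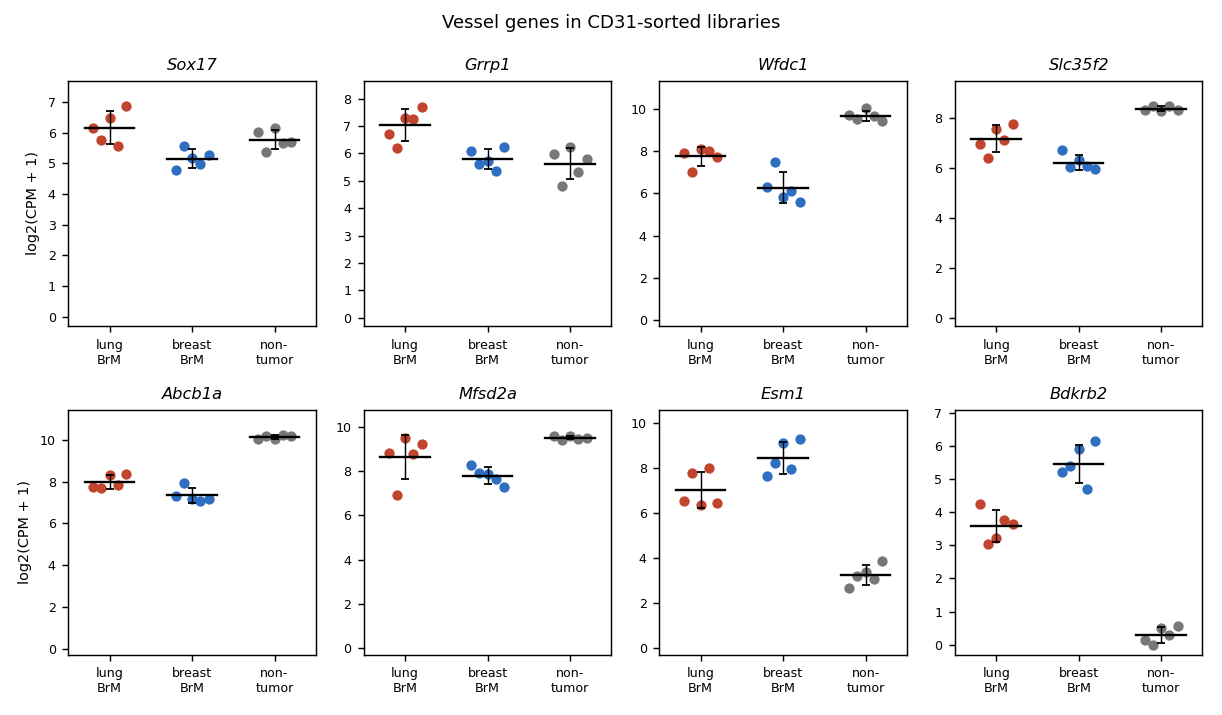
Levels of 8 vessel genes as log2(CPM + 1) in each CD31 library, with the mean and SD of 5 libraries a group. The upper 4 genes were called higher in lung BrM; Abcb1a, Mfsd2a and Esm1 were not called; Bdkrb2 was called lower in lung BrM.

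Barrier transport genes were not called in 26 of 26 cases by edgeR's test, although 25 of 26 had a positive difference and the median was 0.5. Abcb1a, the drug efflux pump P-glycoprotein, was at 213, 203, 314, 230 and 334 CPM in lung BrM and at 157, 247, 144, 134 and 145 CPM in breast BrM, against 1060 to 1200 CPM in non-tumor brain (log2 difference, lung minus breast, 0.65 ± 0.19, adjusted p = 0.09). Mfsd2a, a lipid transporter that restrains transcytosis, was at 448, 122, 727, 442 and 590 CPM in lung BrM and at 313, 240, 230, 197 and 156 CPM in breast BrM (log2 difference 1.04 ± 0.32, adjusted p = 0.12). Lung library 51697 is the low one in Mfsd2a and also the one with the most Pdgfrb. The organic anion carrier Slc22a8, named after its values were seen, had a log2 difference of 1.21 ± 0.35 (adjusted p = 0.096). These 3 transporters passed when 1 library was left out: Abcb1a without breast library 52599 (log2 difference 0.87, adjusted p = 0.009), Mfsd2a without lung library 51697 (1.28, adjusted p = 0.0029), and Slc22a8 without lung library 51697 (1.41, adjusted p = 0.025) or 51435 (1.41, adjusted p = 0.046). Against non-tumor brain, 15 of the 26 genes were lower and 1 higher in lung BrM, with a median of -1.29. In breast BrM 19 were lower and 1 higher, with a median of -1.83. Over all genes tested, 34.8% passed in lung BrM and 30.1% in breast BrM, in either direction.

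Sprouting and division genes showed no call either by edgeR's test. Of 30 tip cell genes 0 were called, with 22 negative and a median of -0.27. Esm1, a proteoglycan of tip cells, was at 92.4, 223, 81.1, 258 and 85.7 CPM in lung BrM and at 200, 302, 558, 249 and 628 CPM in breast BrM, against 5.33 to 13.6 CPM in non-tumor brain (log2 difference, lung minus breast, -1.39 ± 0.39, adjusted p = 0.086; -1.66, adjusted p = 0.041, without lung library 55169-70). Of 28 genes of G2 and mitosis 0 were called, with 26 negative and a median of -0.5. Mki67, the proliferation antigen, was at 18.1, 4.35, 18.3, 7.28 and 16.6 CPM in lung BrM and at 32, 25.9, 42.6, 55.8 and 25.9 CPM in breast BrM. Its libraries do not overlap, yet it did not pass (log2 difference -1.49 ± 0.64, adjusted p = 0.29). Of the 19 basement membrane, 12 capillary identity and 25 S phase genes tested, 0 were called. Over all genes 2198 had an unadjusted p under 0.05, and DESeq2 called 872 genes where edgeR called 317. A p above the threshold does not show that the origins are alike in these programs.

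Outside the enriched set, Syk and Bdkrb2 are called genes that the PDGFRb sort held little of. Syk, a kinase of immune and endothelial signalling, was at 18.7, 67.8, 28.3, 27.5 and 52.3 CPM in lung BrM and at 18.4, 6.02, 6.11, 6.07 and 6.11 CPM in breast BrM (log2 difference 2.18 ± 0.47, adjusted p = 0.021). Its PDGFRb sort level averaged 3.33 CPM in lung BrM and 3.78 CPM in breast BrM. Syk lost its call without breast library 52865 (log2 difference 2.08), 53072 (2.1) or 53142 (2.08). Bdkrb2, the bradykinin B2 receptor, was at 18.1, 7.2, 8.35, 12.6 and 11.4 CPM in lung BrM and at 35.6, 40.9, 58.8, 24.7 and 69 CPM in breast BrM, against at most 0.477 CPM in non-tumor brain. It was 3.97-fold lower in lung BrM (log2 difference -1.99 ± 0.46, adjusted p = 0.032) and had no counts in the PDGFRb sort of breast BrM. Bdkrb2 lost its call without breast library 51950, 52599, 52865 or 53142 (log2 difference -2.06, -2, -1.89 and -1.8) or lung library 54957 or 55169-70 (-1.89 and -2). Lalba, which encodes alpha-lactalbumin, was at 7.66, 16.1, 17.1, 14.6 and 11.4 CPM in lung BrM and at 2.04, 4.94, 3.08, 1.95 and 3.03 CPM in breast BrM (log2 difference 2.15 ± 0.54, adjusted p = 0.046). This milk protein gene had no counts in the PDGFRb sort of either origin, and its call was lost without breast library 51950, 52865, 53072 or 53142 or lung library 51697, 54957 or 55169-70, with log2 differences of 2.04 to 2.16.

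Genes named for the size of their difference include Clu, Aqp1 and Scd1. Clu, the secreted chaperone clusterin, was at 1480, 1920, 2200, 926 and 567 CPM in lung BrM and at 299, 153, 60, 274 and 154 CPM in breast BrM (log2 difference 2.92 ± 0.42, adjusted p = 0.0013). Its PDGFRb sort level averaged 14600 CPM in lung BrM and 296 CPM in breast BrM. Aqp1, a water channel, was at 58, 125, 43.1, 229 and 289 CPM in lung BrM and at 1.09, 0.154, 0.336, 0.236 and 2.45 CPM in breast BrM (log2 difference 7.37 ± 0.76, adjusted p = 1e-04; 8.23 without breast library 53142). Aqp1 in the PDGFRb sort averaged 286 CPM in lung BrM and 10.9 CPM in breast BrM. Scd1, a fatty acid desaturase of lactating gland and liver, was at 0.759 to 41.3 CPM in lung BrM and 120 to 3310 CPM in breast BrM (log2 difference -6.46 ± 1.1, adjusted p = 0.0048). The difference was -5.24 without breast library 53072 and -7.96 without lung library 51435. In the PDGFRb sort Scd1 averaged 68.9 CPM in lung BrM and 2570 CPM in breast BrM.

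Among metabolic genes, 3 of 31 of hypoxia and glycolysis (9.68%) and 3 of 25 of fatty acid and lipid metabolism (12%) were called, beside 2.13% of all genes, and 0 of 22 of cholesterol synthesis by edgeR's test. Aldoa, a glycolytic aldolase, was at 919, 1050, 739, 904 and 902 CPM in lung BrM and at 1450, 1470, 1920, 2250 and 1380 CPM in breast BrM (log2 difference -0.91 ± 0.15, adjusted p = 0.0042), and averaged 1000 CPM in lung BrM and 4560 CPM in breast BrM in the PDGFRb sort. The 3 hypoxia and glycolysis genes were lower in lung BrM, and of the 3 lipid genes 1 was higher and 2 lower. Acadm, an enzyme of fatty acid oxidation, was at 75.4, 71.4, 62.6, 63.1 and 86.7 CPM in lung BrM and at 37.7, 31.7, 46.8, 52.8 and 44 CPM in breast BrM (log2 difference 0.75 ± 0.16, adjusted p = 0.016). Gstm1, a glutathione transferase, was at 257, 244, 182, 203 and 172 CPM in lung BrM and at 63.3, 79.1, 109, 71.9 and 75.3 CPM in breast BrM, against 618 to 747 CPM in non-tumor brain (log2 difference, lung minus breast, 1.41 ± 0.16, adjusted p = 0.00021). In these 3 genes the origins do not overlap. In the PDGFRb sort Acadm averaged 251 CPM in lung BrM and 96.6 CPM in breast BrM. Gstm1 averaged 1210 CPM in lung BrM and 115 CPM in breast BrM there. Both genes stood higher in that sort than in the CD31 sort of each origin. Of the 39 program lists, 17 held no called gene.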

How the data were processed

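RNA of CD31-sorted cells was read in 5 lung BrM, 5 breast BrM and 5 non-tumor libraries, and the 13 PDGFRb libraries served as a gauge of other cells. Alignment and quantification tools in the submitters' processing notes are STAR (2.7.9a) and RSEM (1.3.3), beside limma (3.50.3), edgeR (3.36.0) and build mm10. The annotation release is not given in the sources used here. The deposited expected counts are the authors' estimated counts per gene, unscaled, for 53647 IDs, of which 52093 matched a symbol; the rest held 0.182% to 1.57% of the counts of a CD31 library. The deposited log2 values are log-scaled, normalized by the authors, and the deposited FPKM values are scaled by the authors to length and depth; both were used only as alternatives. The kits named in the labels, SMART-Seq HT and Nextera XT, do not mark strand, so a gene and its antisense partner cannot be told apart.

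Expected counts were rounded, filtered with filterByExpr, scaled by TMM and fitted with edgeR 4.0.16's quasi-likelihood test (robust) in R 4.3.3 over the 15 CD31 libraries, and p-values were adjusted over all genes. CPM rest on TMM-scaled totals, those compared with the PDGFRb sort on raw totals. SE is the absolute log2 difference over the root of F. The fit was tested on simulated data. Groups and mouse numbers come from titles. Mouse 54135 (non-tumor) has a title and a cell type label that name opposite sorts and was grouped by title. Its library titled CD31 had Pecam1 at 1310 CPM and Pdgfrb at 0.218 CPM. Both values lie inside the range of the other non-tumor CD31 libraries, as the title has it. The chi-square between any replicates of an origin was at least 53.6 a degree of freedom, so none is a duplicate.

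The members, the 56 gene lists and the tests were chosen with earlier results of these data known. Of 1133 list symbols 4 had no match. Some genes counted in these results are not reported here. Named genes are the genes of the gate, the 8 largest differences in each direction among calls that do not overlap and average 3 or more in log2 CPM, 10 in each direction among endothelial-enriched genes, and up to 4 called members a list (3 for other cell types) or the member with the smallest p. Other genes were chosen after their values were seen, such as Irf7, Irf9, Stat2, Isg15, Zbp1, Usp18, Ddx58, Ifi27, Icam1, Irf1, B2m, Grrp1, Wfdc1, Slc35f2, Bdkrb2, Gstm1 and Lalba. Tried as alternatives were DESeq2 1.42.0, limma-voom (limma 3.58.1), scaling by upper quartile or RLE, other filters, the deposited log2 and FPKM values with pseudocounts of 1 and 0.1, a log2 minimum of 1, leaving out libraries, and date or epithelial RNA as covariates.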

Additional observations from a re-analysis of the deposited data

Results flagged for a closer look

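For 13 genes both origins passed the test against non-tumor brain, in opposite directions, and lung passed against breast BrM. Those reported here follow. In 12 of the 13 lung BrM was below and breast BrM above non-tumor brain. The log2 differences, lung minus breast, were -1.96 for Ifi44, -1.52 for Oas1a, -1.43 for Rnf213, -6.52 for Ifi206 and -6.91 for Slfn8, which are interferon-induced. They were -8.04 for Plb1, -9.79 for Cited4, -7.68 for Folr1, -8.91 for Tnk1, -4.15 for Mgst1 and -7.96 for Rassf10. Cited4, Tnk1 and Rassf10 had no lung counts, so their fitted values are not measured folds. Against 3 counts over the lung group they were at least 163-, 91.1- and 45.4-fold lower in lung BrM. Folr1 rests on 2 lung counts. In breast BrM the PDGFRb sort held more of each, such as Plb1 at 228 against 70 CPM in the CD31 sort. Dzip1l was above non-tumor brain in lung BrM and below it in breast BrM, with 7.55 on 1 breast count. Single libraries moved several of these by over 1.5-fold, with no call lost. Without lung library 55169-70, Ifi206 was at -11.09 and Folr1 at -9.8, and without lung library 54957, Slfn8 was at -8.6 and Plb1 at -10.28. Without breast library 53072, Plb1 was at -7.26, Cited4 at -8.93, Tnk1 at -8.08, Folr1 at -6.66, Mgst1 at -3.17 and Rassf10 at -7.02. Dzip1l was at 8.83 without breast library 51950 and 6.71 without lung library 51435.

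Among 190 groups of 5 libraries, over the genes named by rule and 8 list levels, 14 held a library whose gap to its neighbour passed Dixon's limit, where chance gives about 1 in 20. Lung library 56195-56520, with the fewest genes detected, was low for Nlrc5 at -2.05 log2 CPM (others 2.65 to 3.5), Cd274 at -1.02, Gbp6 at -3.13 and Mgst1 at -0.69. Lung library 54957 was high for Marveld3 at -0.59 log2 CPM (0.548 CPM) and for Itga8 and Sox10 at -2.45 (0.0685 CPM each), where the other lung libraries had no counts. Lung library 55169-70 was high for Folr1 at -2.16, also with no counts in the others. With the others tied, any count passes the limit, so the flags of these genes cannot be set against 1 in 20. Itga8 and Sox10 rest on 1 lung count each and Folr1 on 2, under the floor of 3 counts. Lung library 51697 was low for Mfsd2a at 6.94 (others 8.79 to 9.51). Breast library 52599 was high for S100a6 at 6.67 and Abcb1a at 7.95 and low for Mcm6 at 6.6. Breast library 51950 was high for Syk at 4.21 (others 2.62 to 2.64) and Ttr at 1.28.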

How the results depend on the processing

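Against 86 genes higher and 231 lower in lung BrM, DESeq2 gave 315 and 557, and a fit of the BrM libraries alone 29 and 93. Voom gave 392 lower and the deposited log2 values 348. Without the lung libraries of 2 mouse numbers 218 were higher, and 58.8% of calls were lower in lung BrM instead of 72.9%. Epithelial RNA as a covariate gave 145 lower. Without lung library 51435 and breast library 53072, chosen after seeing the data, 33 were higher and 96 lower. Column date as a covariate left 0 in each direction. Leaving out 1 library gave 58 to 149 higher and 140 to 345 lower.

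Against 8 endothelial-enriched genes higher and 46 lower, DESeq2 gave 32 and 81, the BrM libraries alone 0 and 22, date 0 and 0, and the fit without libraries 51435 and 53072 1 and 25. The higher genes were 2 with log2(FPKM + 1), 4 with log2(FPKM + 0.1), 5 at an absolute log2 difference of 1 or more and 1 with the epithelial covariate. Leaving out 1 library gave 2 to 23 higher and 29 to 57 lower.

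Genes that were not called changed sign. Cdh5 ranged between -0.32 and 0.16 over fits without 1 library, Krt8 between -0.56 and 1.35 and Ptprc between -1.58 and 0.7. With date Krt8 was at -0.85, Pmvk at -0.24 and Ptprc at 0.66. Ptprc was at 0.28 without the lung libraries of 2 mouse numbers, 0.68 with the epithelial covariate and 0.81 without libraries 51435 and 53072. Icam1 ranged between -0.16 and 0.2 and Ifi27 between -0.18 and 0.11 without 1 library. Icam1 was at 0.05 with voom, 0.03 with the deposited log2 values, 0.02 with each FPKM setting, 0.01 in the BrM libraries alone and 0.09 without the lung libraries of 2 mouse numbers. Ifi27 was at 0.01 with each FPKM setting, 0.17 with the epithelial covariate and 0.11 without libraries 51435 and 53072. Of 2694 values of the 101 called genes named by the rule or after it, over all alternatives, 2176 kept direction and call, 518 lost the call and 0 changed sign. Voom moved the median log2 difference of all genes to -0.19 and date to -0.15. The cause of these changes was not tested. No paired analysis was possible because no mouse gave both origins. Depth leaves levels under the floor of 3 counts unread.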
